A study of Bos taurus with 40 samples.

Results

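RNA-seq libraries of jejunal epithelium from bulls that had been feed restricted and then re-alimented (RES) were compared with those from bulls fed ad libitum throughout (ADLIB), at the end of Period 2. The comparison used the 20 libraries that the labels place at that time point, 10 RES and 10 ADLIB, of 40 libraries in the series. All 20 animals were Holstein Friesian bulls on a diet of 70% concentrate and 30% grass silage. RES bulls had their feed allowance restricted for the 125 days of Period 1, with a target gain of 0.6 kg per day, and were then offered feed ad libitum for the 55 days of Period 2. ADLIB bulls were offered feed ad libitum in both periods, and the ages of the animals are not given in the labels. Both groups were therefore on the same diet and the same feeding level when the tissue was taken, and differed in feeding history. Each library came from a different animal, and the tissue was epithelium scraped from a piece of jejunum. One of the RES libraries, replicate 1, stood apart from the others, so the main results are given with it (20 libraries) and without it (19 libraries).

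The jejunum is the middle stretch of the small intestine and the site where most digested nutrients are taken up. Its epithelium is renewed continuously from stem cells at the base of the crypts, and its mass is known to follow feed intake, shrinking in restricted ruminants and growing again when feed is restored. Animals that return to full feed after restriction can grow faster than animals that were never restricted, which is called compensatory growth. The comparison asks whether the epithelium of bulls with such a history still differed in mRNA from that of bulls without it.

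The 20 libraries listed the same 13605 genes. The authors deposited 1 value per gene and library as CPM, the reads on a gene divided by the reads on all genes and put on a fixed common scale, after adjustment between libraries by the TMM method. The reads behind these values numbered 5082704 to 8295900 per library, with a median of 6983764 in RES and 7169756 in ADLIB animals. The depths of the groups overlapped. Differences are given as RES minus ADLIB on the log2(CPM + 1) scale, where 1 is a 2 fold difference and low genes are understated. In bulk tissue, fewer cells of a type and less RNA per cell cannot be told apart. Genes are identified by Ensembl identifier only, so the tissue could not be checked against marker genes, and 4 genes are given by identifier.

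The group means lay close together. Across genes, the mean log2(CPM + 1) of RES animals correlated with that of ADLIB animals at a Pearson correlation of 0.992 with 20 libraries and 0.995 with 19, as a description over 13605 genes that are not independent of each other. The median difference was -0.01 with 20 libraries and 0.00 with 19. The median size of the difference, whatever its sign, was 0.12, and 95% of genes differed by less than 0.48. With 19 libraries these values were 0.10 and 0.35. The means of 57 genes, 37 higher and 20 lower in RES, were beyond 2 fold of each other with 20 libraries, against 28 genes with 19 libraries, and 23 genes were in both counts. For 40 of the 57 genes the library farthest out in the direction of the difference was RES replicate 1, and for 10 it was RES replicate 2.

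**Figure D1:**
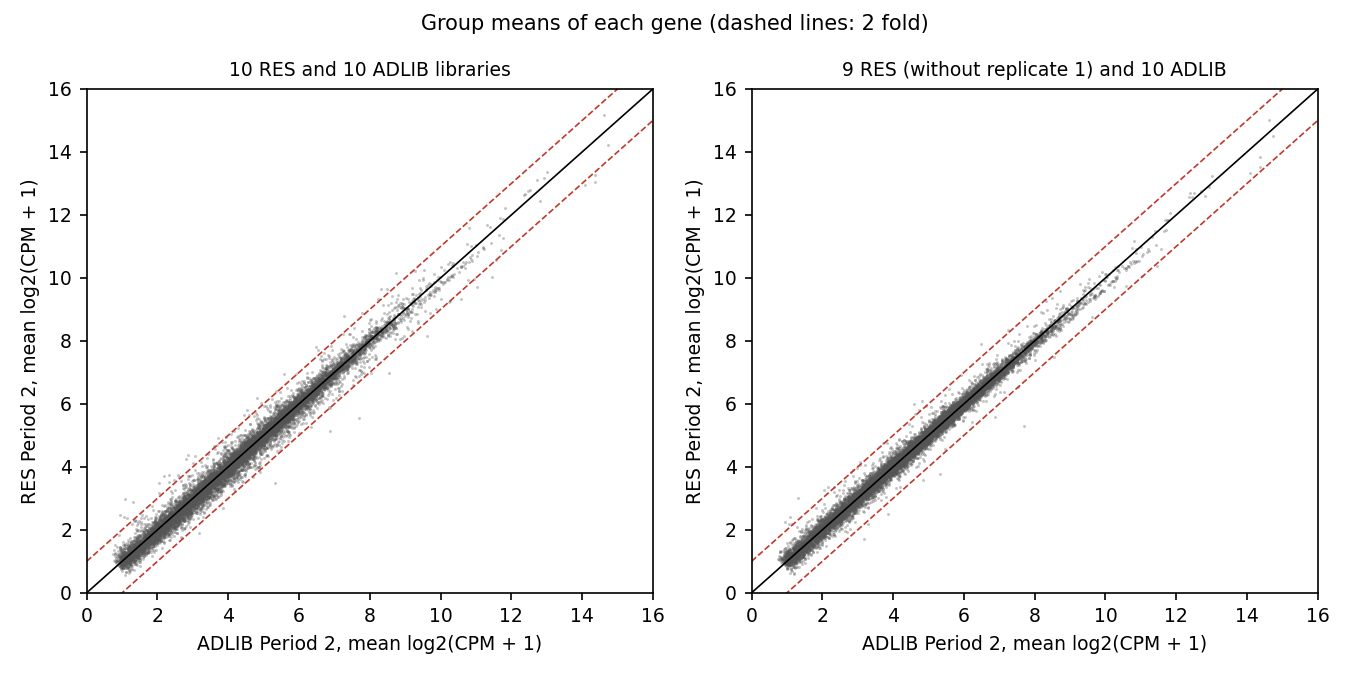
Mean log2(CPM + 1) of each of the 13605 genes in RES (vertical axis) against ADLIB animals (horizontal axis) at the end of Period 2, with all libraries on the left and without RES replicate 1 on the right. Each point is a gene, the solid line marks equal means and the dashed lines mark a 2 fold difference, beyond which 57 genes lay on the left and 28 on the right.

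At the threshold of the study, none of the tests run here called a gene differentially expressed. The paper itself reports GSTA1, and no other gene, as differing between the groups at this time point. As identifiers could not be paired with symbols, the values of GSTA1 were not looked up here. Whether either gene called at a looser rate below is GSTA1 could not be checked. With limma on log2(CPM + 1) and Benjamini-Hochberg adjustment, none of the 13605 genes (0%) passed a false discovery rate of 0.001, which the methods of the study used as their cut, or of 0.1. The lowest false discovery rate was 0.99 with 20 libraries and 1.00 with 19. At an unadjusted p-value under 0.05 there were 280 genes (2.06% of genes tested), with 119 (0.875%) higher in RES and 161 (1.18%) higher in ADLIB animals. With 19 libraries there were 299 genes (2.2%), 120 higher (0.882%) and 179 lower (1.32%). The shares of 2.06% and 2.2% are below what a threshold of 0.05 gives on average when no gene differs. The 158 genes in both counts were 56.4% of the first and 52.8% of the second. In the same libraries, edgeR's quasi-likelihood test on the recovered reads put 499 genes under an unadjusted 0.05, edgeR's likelihood ratio test 588 and DESeq2 596, and at a false discovery rate of 0.001 none of the 3 tests called a gene. With 19 libraries these counts were 381, 385 and 472. At the looser rate of 0.1 the likelihood ratio test called 1 gene with 20 libraries, and DESeq2 called 1 other with 19. They are ENSBTAG00000006546 and ENSBTAG00000014713. In 0 genes (0%) did the RES and ADLIB animals fall into ranges that did not overlap, with or without RES replicate 1. The RES median lay within the range of the ADLIB animals in 98.4% of genes, and in 97.5% without RES replicate 1.

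Because a gene that is not called may still differ, the size of difference that the data allowed was measured for each gene from its 95% confidence interval, taken from the same limma model. The larger end of the interval, in either direction, is called the bound here. With 20 libraries the median bound was 0.50, a 1.41 fold difference, and the 90th percentile of the bounds was 2.00 fold. With 19 libraries the median bound was 0.43, a 1.35 fold difference, and the 90th percentile was 1.72 fold. The interval lay wholly inside 2 fold for 12241 genes (89.97%) with 20 libraries and for 13025 genes (95.7%) with 19. It lay inside 1.5 fold for 8582 genes (63.1%) and 10015 genes (73.6%). These bounds are on the log2(CPM + 1) scale, which understates differences of low genes. When 0.25 CPM was added instead of 1 CPM, the interval lay inside 2 fold for 11370 genes (83.6%) with 20 libraries. At the other end, the bound was over 4 fold for 123 genes with 20 libraries and 52 with 19, so that for those genes a difference over 4 fold in at least 1 direction was not outside the interval.

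An equivalence test was then applied, in which a pair of one-sided limma tests asks whether the difference is smaller than a stated margin, with adjustment over all 13605 genes. Within a margin of 2 fold, 12573 genes (92.4%) were equivalent between RES and ADLIB animals at an adjusted p-value under 0.05. The number was 13228 (97.2%) with 19 libraries. It also depended on the scale, which understates differences of low genes. When 0.25 CPM was added to the values instead of 1 CPM, 11831 genes (87.0%) were equivalent with 20 libraries, and 13071 (96.1%) when 4 CPM was added. Within a margin of 1.5 fold, 9130 genes (67.1%) were equivalent with 20 libraries and 10792 genes (79.3%) with 19. Removing 1 library of 20 thus took the number of genes not shown to be equivalent within 2 fold from 1032 to 377. Of the 1032 genes, 682 became equivalent, 350 did not, and 27 others were lost.

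The level of expression made a modest difference to these shares. With 20 libraries, 96.0% of the 2300 genes with a mean under 5 CPM were equivalent within 2 fold. The share was 91.1% of 4010 genes at 5 to 20 CPM, 93.4% of 5600 genes at 20 to 100 CPM and 87.4% of 1695 genes at 100 CPM or more. The high share in the lowest class is partly set by the scale, since adding 1 CPM draws low values together. Leaving out RES replicate 1 gave 98.1%, 97.2%, 97.7% and 94.5% in the same order. Within 1.5 fold, the class from 20 to 100 CPM had the highest share of equivalent genes, at 75.4% with 20 libraries and 85.9% with 19, and the class under 5 CPM had the lowest, at 56.0% and 70.3%.

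**Figure D2:**
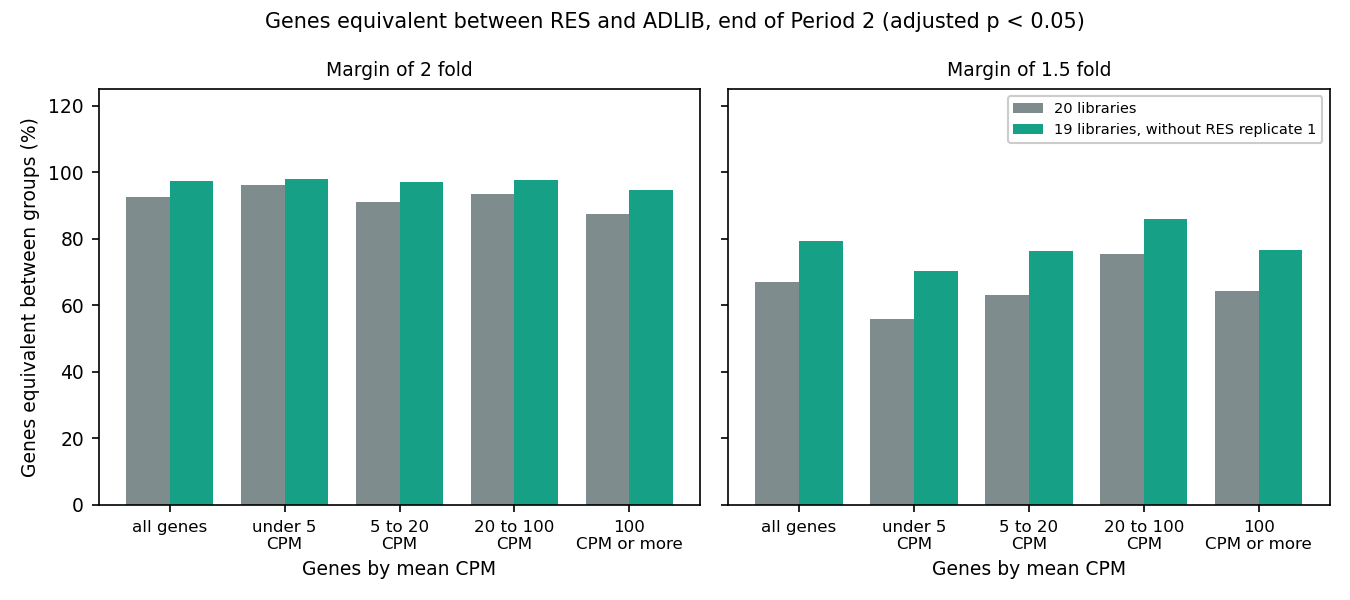
Share of genes (vertical axis, percent) that were equivalent between RES and ADLIB animals at an adjusted p-value under 0.05, for all genes and for 4 classes of mean CPM (horizontal axis), within a margin of 2 fold on the left and 1.5 fold on the right. Grey bars are 20 libraries and green bars 19 libraries without RES replicate 1, and in every class the green bar is the higher one, with 92.4% and 97.2% for all genes within 2 fold.

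The genes not shown to be equivalent had both wider intervals and larger differences than the equivalent genes. Of the 1032, 638 had group means within 1.5 fold of each other, 57 had means beyond 2 fold, and in 935 the interval included no difference. Their median interval reached 0.89 to either side of the estimate, against 0.36 for the equivalent genes, and their median difference was 0.53 in size, against 0.11. Of the 377 such genes with 19 libraries, 245 had means within 1.5 fold and 28 beyond 2 fold, and in 337 the interval included no difference. Variability was also measured in the libraries from the end of Period 1, which come from other animals. Of the 500 genes with the largest standard deviation within groups in Period 1, 167 (33.4%) were equivalent within 2 fold at the end of Period 2, against 94.7% of the other genes shared between the periods, and 333 of the 1032 were among the 500. With 19 libraries the shares were 53.0% and 98.9%.

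The 100 highest expressed genes were less closely matched than the rest. The 100 genes with the highest mean, each at 917 CPM or more, took between 26.2% and 46.3% of the reads of a library. Their share of reads was 32.02% ± 3.28 in RES and 34.1% ± 5.20 in ADLIB animals (SD, n = 10), and 31.3% ± 2.51 in RES animals without replicate 1 (SD, n = 9). Of these genes 61 were equivalent within 2 fold with 20 libraries and 76 with 19. Their median difference was -0.20 in both cases, against -0.01 and 0.00 over all genes. Lower means in RES were found for 60 of the 100 with 20 libraries and for 64 with 19, and 5 and 7 of them had an unadjusted p-value under 0.05, all lower, beside 1.18% and 1.32% of all genes. When TMM scaling was not applied, 1 was higher and 5 lower with 20 libraries, and with 19 the median of the 100 was -0.14 and 0 of them had an unadjusted p-value under 0.05.

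The direction of the small differences depended on the scaling and on the test. With the deposited TMM scaling, 42.5% of the 280 genes under an unadjusted 0.05 were higher in RES animals, against 65.4% (161 higher and 85 lower) when CPM was computed from the recovered reads without TMM. With 19 libraries the contrast was wider, with 40.1% higher under TMM and 87.8% (274 higher and 38 lower) without it, where the median of all genes moved to 0.05. For the 1695 genes at 100 CPM or more, 7 were higher and 24 lower under TMM with 20 libraries, and 18 and 18 without it. The counts were 4 and 44 under TMM with 19 libraries, and 25 and 9 without it. The balance also differed between tests. With 20 libraries, edgeR's quasi-likelihood test put 393 genes higher and 106 lower in RES at an unadjusted p-value under 0.05, its likelihood ratio test 471 and 117, and DESeq2 427 and 169. The same tests gave 191 and 190, 218 and 167, and 234 and 238 with 19 libraries. No direction over genes is therefore given for the comparison.

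The gene with the smallest p-value among those higher in RES animals was ENSBTAG00000012966. In RES animals it was lowest at 6.94 CPM, with a median of 13.6 and a highest value of 19.2 CPM. In ADLIB animals the lowest value was 5.39 CPM, the median 7.96 CPM and the highest 13.0 CPM. Of the 10 RES animals 9 were above the ADLIB median and 6 above the highest ADLIB animal, but the groups overlapped. The difference was 0.63 (standard error 0.18, 95% interval 0.26 to 1.01, limma adjusted p = 0.99). Without RES replicate 1, which was at 13.9 CPM near the RES median, it was 0.63 again (interval 0.24 to 1.01). The gene was counted as equivalent within 2 fold (limma, adjusted equivalence p = 0.0304 with 20 libraries), although both intervals reached just past 2 fold.

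ENSBTAG00000002188 had the smallest p-value among genes lower in RES animals, and was close to the detection limit. Its values in RES animals were 0 at the lowest, 0.686 at the median and 1.65 CPM at the highest. In ADLIB animals they were 0.870, 1.55 and 2.33 CPM. The RES animals were the low ones, with 8 of 10 below the lowest ADLIB animal, and the lowest of all was RES replicate 1, with no reads. The difference was -0.62 (standard error 0.16, 95% interval -0.94 to -0.29, limma adjusted p = 0.99), and -0.54 without that library (interval -0.83 to -0.24). With a pseudocount of 0.25 CPM the difference was -1.05, with 4 CPM it was -0.25, and the fits to the recovered reads of the 20 libraries gave -1.07 to -1.26. On log2(CPM + 1) the gene was counted as equivalent within 2 fold (limma, adjusted equivalence p = 0.0133). The pseudocount of 0.25 CPM and those fits to reads put its difference beyond 2 fold. As 1 read was worth between 0.116 and 0.295 CPM in these libraries, each value rests on few reads.

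ENSBTAG00000014713 was the gene with the smallest p-value once RES replicate 1 was left out, and was chosen after its values were seen. Its values were 75.1 CPM in the lowest, 97.4 CPM at the median and 134 CPM in the highest RES animal, and 105, 130 and 151 CPM in ADLIB animals. The highest RES value was that of replicate 1, and the next was 116 CPM, so that without it the RES animals lay between 75.1 and 116 CPM. The difference was -0.38 with 20 libraries (standard error 0.10, 95% interval -0.59 to -0.17, limma adjusted p = 0.99). With 19 it was -0.43 (standard error 0.09, interval -0.62 to -0.24, limma adjusted p = 1.00). DESeq2 on the recovered reads of the 19 libraries called this gene alone, with an adjusted p-value of 0.0242. The difference was well inside the margin of 2 fold, with an adjusted equivalence p-value of 7.4e-06 from limma.

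For ENSBTAG00000006546 the result rested on 1 library. RES replicate 1 was at 2361 CPM, while the other RES animals ran from 0 to 7.87 CPM and the ADLIB animals from 0.501 to 7.18 CPM. The medians were close, at 1.63 CPM in RES and 1.32 CPM in ADLIB animals. In edgeR's likelihood ratio test, run on the recovered reads, it alone had a false discovery rate under 0.1 (0.0807), with a log2 fold change of 6.95. The quasi-likelihood test gave 6.97 and DESeq2 0.01 for the same libraries, against 0.94 with limma. The fold change that the paper prints for GSTA1 at this time point, without naming a log2 scale, is nearly the same number as the 6.95. Whether ENSBTAG00000006546 is GSTA1 could not be checked. The limma interval of the difference of ENSBTAG00000006546 ran from -1.05 to 2.93 with 20 libraries. Once that library was left out the difference was -0.05 and the interval ran from -0.72 to 0.63, inside 2 fold.

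**Figure D3:**
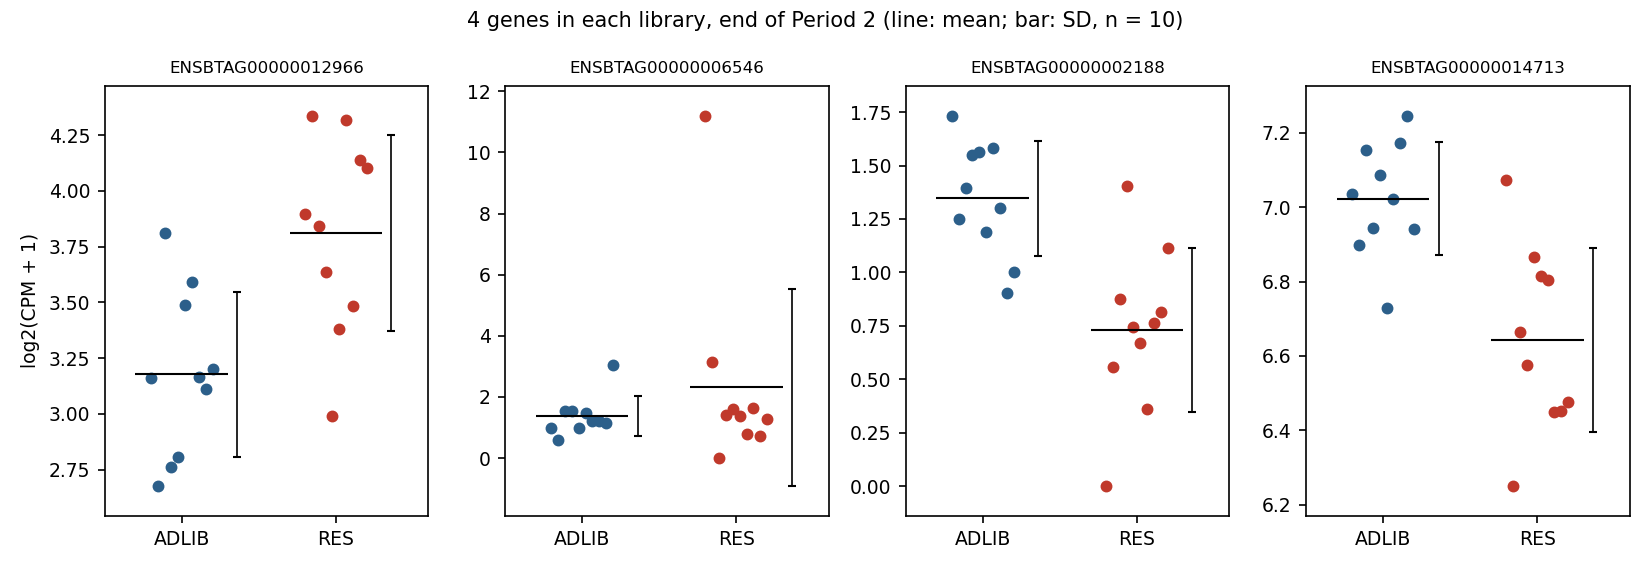
Values of the 4 genes on the log2(CPM + 1) scale (vertical axes, which differ between panels and do not all start at 0) in the 10 ADLIB and 10 RES animals, with the mean as a line and the SD as a bar. The groups overlap in each panel, and in the panel of ENSBTAG00000006546 RES replicate 1 lies far above all other animals.

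The libraries themselves agreed to different degrees. For each library, the genes within 2 fold of the median of the other 19 libraries were counted. The share was 89.1% to 99.1% in ADLIB animals, with a median of 98.3%. It was 56.4% in RES replicate 1, 81.0% in RES replicate 2 and 93.9% to 99.1% in the other RES animals. ADLIB replicates 9 and 10 were the lowest of their group, at 91.2% and 89.1%. Over pairs of libraries, the Pearson correlation across genes had a median of 0.946 within RES, 0.965 within ADLIB and 0.954 between the groups, so that animals of different groups were about as alike as animals of the same group. The medians were 0.948, 0.965 and 0.958 with 19 libraries.

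The first principal component held 47.0% of the variance among the 20 libraries, and its score was 10.4 ± 56.8 in RES and -10.4 ± 20.7 in ADLIB animals (SD, n = 10). The groups did not differ on it beyond their spread (permutation test, two-sided, p = 0.321, adjusted over 2 components 0.321), nor on the second, with 12.9% of the variance (p = 0.309, adjusted 0.321). With 19 libraries the first component held 29.3% of the variance, with a p-value of 0.391 in an exact permutation test (adjusted 0.435).

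**Figure D4:**
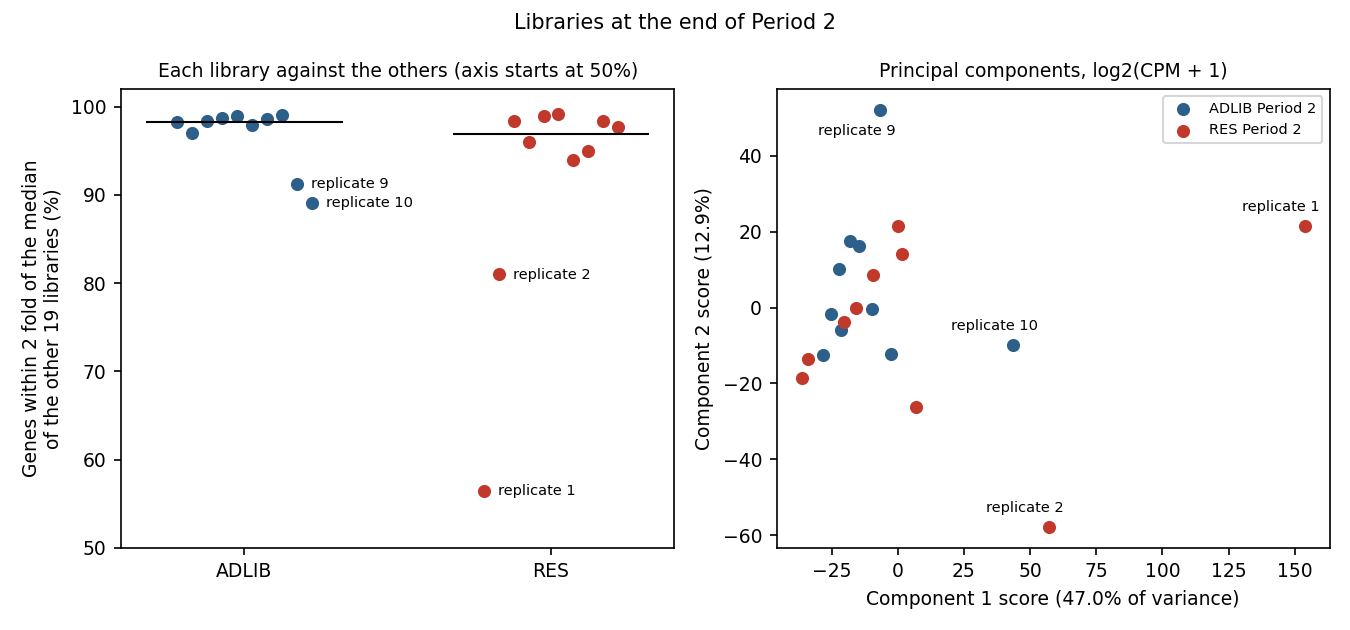
Left, the share of genes in each library within 2 fold of the median of the other 19 libraries (vertical axis, percent, starting at 50%), with the group median as a line. Right, the scores of the 20 libraries on the first and second principal components of log2(CPM + 1), where RES replicate 1 has the highest score on the first, and RES replicate 2 and ADLIB replicate 10 follow.

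The spread between animals was larger in the RES group, and RES replicate 1 carried much of the excess. The median standard deviation of a gene was 0.47 among the 10 RES animals and 0.31 among the 10 ADLIB animals, and the RES value was the larger in 11379 genes (83.6%). With 19 libraries the median in RES animals was 0.35, and the RES value was the larger in 8943 genes (65.7%). The median ratio of the standard deviations, RES to ADLIB, was 1.49 with the library and 1.15 without it. Leaving out any 1 ADLIB animal gave ADLIB medians between 0.28 and 0.32. The number of genes with an RES standard deviation over 2 times the ADLIB one went from 3396 to 768, and the reverse from 51 to 157. The interval became narrower without RES replicate 1 for 11005 genes (80.9%), although an animal fewer was used.

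RES replicate 1 differed from the others both upward and downward. It exceeded the median of the 19 other libraries by more than 4 fold in 650 genes, and was as far beneath it in 1258. The first set held 40.0% of its reads, while in the 19 others that share ran from 5.98% to 20.8%. The second set held 0.639% of its reads, while in the 19 others the share ran from 4.95% to 25.2%. In 24.3% of the first set and 21.5% of the second, at least 1 other library was also over 4 fold from the median in the same direction. These genes were chosen for their values in that library, so their group difference is given only as a description. The median difference was 0.34 for the first set and -0.33 for the second with 20 libraries, and 0.10 and -0.04 with 19. Without the library, 525 of the 650 and 1157 of the 1258 genes were equivalent within 2 fold.

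The direction in which RES replicate 1 departed was partly shared by libraries of other groups. For each library, every gene's deviation from the median of its own period was taken, and these profiles were correlated over the 13509 genes listed in both periods. Such correlations describe the libraries and are not independent of their composition. The profile of RES Period 2 replicate 1 correlated most with that of ADLIB Period 1 replicate 4 (Pearson r = 0.720), then with ADLIB Period 2 replicate 10 (r = 0.638) and RES Period 2 replicate 2 (r = 0.591). The range was -0.547 to 0.720 in ADLIB Period 1, -0.606 to 0.521 in RES Period 1, -0.449 to 0.638 in ADLIB Period 2 and -0.534 to 0.591 in the other RES Period 2 animals. Libraries with profiles alike to it and opposite to it were thus present in both feeding groups and both periods. Whether the profile belongs to the animals, to the piece of tissue scraped or to the preparation of the RNA was not tested.

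**Figure D5:**
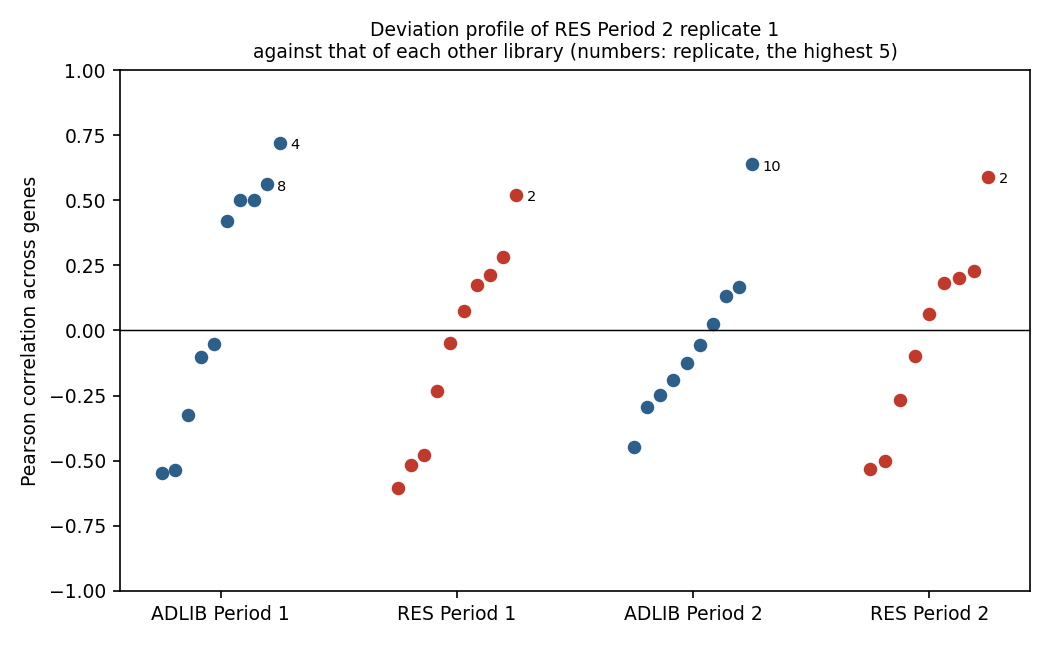
Pearson correlation across 13509 genes (vertical axis) between the deviation profile of RES Period 2 replicate 1 and that of each of the other 39 libraries, by group (horizontal axis). Each point is a library, the 5 highest carry their replicate number, and every group holds points above and below 0.

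The end of Period 1, when RES animals were still restricted, gives a choice of genes that is independent of the Period 2 animals. Of the 13509 shared genes, 478 (3.54%) had an unadjusted p-value under 0.05 for RES against ADLIB when Period 1 ended, with a median difference of 0.50 in size. That share is below what a threshold of 0.05 gives on average when no gene differs. As a set the 478 are therefore not shown to differ between the feeding groups. At the end of Period 2 the same rule held for 273 (2.02%) of the shared genes. Of the 478 genes, 4 had an unadjusted p-value under 0.05 at the end of Period 2 in the Period 1 direction and 15 in the opposite one, beside 41 and 232 of all shared genes. Without RES Period 2 replicate 1 these counts were 5 and 7, beside 67 and 227. Equivalence within 2 fold at the end of Period 2 was reached by 375 (78.5%) of the 478 with 20 libraries and by 439 (91.8%) with 19, against 92.4% and 97.2% of all shared genes. For the 31 genes of the 478 whose means were beyond 2 fold at the end of Period 1, 7 were equivalent within 2 fold at the end of Period 2, and 11 without RES replicate 1. Of the 31, 1 had an unadjusted p-value under 0.05 at the end of Period 2, in the direction opposite to Period 1, and 0 without RES replicate 1. For most of those 31 genes the Period 2 data could therefore show neither a difference nor equivalence.

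The 478 genes more often had the opposite sign at the end of Period 2 than the same sign, but so did all genes, and the shares moved with a few libraries. With 40 libraries, 94 of the 478 (19.7%) and 31.96% of all shared genes had the same sign in both periods. Without RES Period 2 replicate 1 these shares were 28.5% and 40.7%. Leaving out ADLIB Period 1 replicate 4 as well, the library with the profile most like it, the share was 44.4% of all shared genes, and with RES Period 2 replicate 2 also left out it was 51.1%. Without that ADLIB library 337 genes, not 478, had an unadjusted p-value under 0.05 in Period 1, and 35.3% and 42.4% of those 337 had the same sign in these last 2 cases, still fewer than for all genes. The libraries left out here were chosen after their profiles were seen. ADLIB Period 2 replicate 10, after ADLIB Period 1 replicate 4 the most like RES Period 2 replicate 1, was kept in throughout. How the shares move without it was not tested. The difference of the feeding groups between the periods was tested in 1 limma model over all 40 libraries. The interaction of feeding group and period was under a false discovery rate of 0.1 for 0 of 13509 genes (0%), with a lowest value of 0.377 and 877 genes at an unadjusted p-value under 0.05. Without RES Period 2 replicate 1 the count was again 0, with a lowest value of 0.214 and 583 genes.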

How the data were processed

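RNA from jejunal epithelium of 40 bulls was sequenced single-end, and the 20 libraries from the end of Period 2 were compared here. The authors aligned reads to the UMD3.1 assembly, used HTSeq to count them on protein-coding genes of Ensembl, and deposited CPM per gene and library after TMM scaling with edgeR, separately for each period. The submitters' processing notes name CASAVA 1.4, Bowtie, SAMtools, HTSeq and edgeR. In 13 of the 40 libraries the deposited CPM sum to more than the nominal CPM total because of the scaling factor, and these were recorded as a normalized signal deposited on the same scale. Protocol text in the labels also mentions muscle and other numbers of animals, and the tissue and group labels were followed.

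Reads behind the Period 2 values were recovered from the smallest step between values of a library, and 100% of values were whole reads within a tolerance of 0.01 reads. No 2 libraries held identical values. Groups were compared with limma 3.58.1 (R 4.3.3), using log2(CPM + 1), an intensity trend, no covariates and no filter beyond the authors' own on low genes. The study had used edgeR's likelihood ratio test on counts, and as the files hold CPM, limma was the main test here. The likelihood ratio and quasi-likelihood tests (edgeR 4.0.16), limma-voom and DESeq2 1.42.0 served as alternatives on the recovered reads. Equivalence was tested with a pair of one-sided tests on the limma estimates, at margins of 2 and 1.5 fold, adjusted by Benjamini-Hochberg. Principal components were compared by permutation (SciPy 1.17.1, 1e+05 resamples, or all rearrangements for 19 libraries). The scripts were tested on simulated reads, drawn independently for each gene and library, and so without a library that stands apart.

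The limma p-values set a group difference against the spread between libraries, 1 per animal. That spread includes counting error, which weighs more at low values. The library left out, the members and the gene lists were chosen with earlier results of these data known. The rule for naming genes, the gene lists and the marker lists needed gene symbols, and the tables used here do not pair the identifiers with symbols, so they were not applied and no sequences are printed. In their place 4 identifiers are given, namely the smallest p-value in each direction, the gene called by the likelihood ratio test and the smallest p-value without RES replicate 1, the last chosen after its values were seen. Alternatives were other pseudocounts, filters, weights, scalings, tests, the replicate number as a block, the library code digit as a factor, and leaving out each library.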

Additional observations from a re-analysis of the deposited data

Results flagged for a closer look

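In groups of 10, the gap between the most extreme library and its nearest neighbour was compared with the group's range. Of 24 groups of values tested, 12 had a gap above the 95% critical value of 0.466. About 1 in 20 groups, or 1.2 of 24, would pass it if values were independent and normally spread. These items do not meet that condition. ENSBTAG00000006546 was named for a call that rests on 1 library, and RES replicate 1 was singled out beforehand. The count of 12 is therefore only a description. The measures come from the same libraries, so the 12 are not separate events, and their part in the comparison was not tested beyond leaving the libraries out.

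RES replicate 1 lay apart from its group with a scaling factor of 0.587, 585 genes at 0, a Pearson correlation of 0.815 with the median profile of the remaining 19, 56.4% of genes within 2 fold of that median, a first principal component score of 154 and ENSBTAG00000006546 at 11.21 on the log2(CPM + 1) scale. ADLIB replicate 10 lay apart with a scaling factor of 0.722, 42 genes at 0, 30.8% of its reads in its 10 largest genes, a first component score of 43.7 and ENSBTAG00000006546 at 3.03 on the log2(CPM + 1) scale. ADLIB replicate 9 lay apart on the second component, with a score of 52.1.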

How the results depend on the processing

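All 38 alternatives gave 0 genes at a false discovery rate under 0.001. At 0.1, 36 gave 0 genes, edgeR's likelihood ratio test on the 20 libraries gave 1, and DESeq2 on the 19 libraries, added after seeing the data, gave 1 at both 0.05 and 0.1. Counting genes at these thresholds for the count tests was also added later. The design had used the likelihood ratio test at 0.1 only to choose genes to name. Leaving out each library in turn, 0 genes were under 0.1, and the number of genes at an unadjusted p-value under 0.05 ran from 129 without RES replicate 2 to 631 without RES replicate 7. It was 171 without ADLIB replicate 7, 180 without ADLIB replicate 4, 185 without RES replicate 4, 589 without ADLIB replicate 10 and 994 with array quality weights, against 280 with all libraries. With 1 library left out at a time, the number of genes equivalent within 2 fold ran from 12272 without ADLIB replicate 10 to 13228 without RES replicate 1. That within 1.5 fold ran from 8362 to 10792, the number with an interval inside 2 fold from 11934 to 13025, and the median bound from 0.43 to 0.52. Over the 32 settings with a limma interval, from 86.8% (limma-voom) to 98.5% of genes were equivalent within 2 fold. Within 1.5 fold the share ran from 56.5% with 0.25 CPM added to 87.3% with array quality weights. Between the same 2 settings, genes with an interval inside 2 fold ran from 83.6% to 97.7%, and the median bound from 0.54 to 0.38. The median ratio of the standard deviations was 1.15 without RES replicate 1 and 1.49 with it.

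The difference of ENSBTAG00000006546, 0.94 with all libraries, ran from -0.05 to 1.20 with limma when each library was left out in turn, the highest without RES replicate 3. It reversed to -0.05 without RES replicate 1, -0.035 with array quality weights, -0.28 without RES replicates 1 and 2, -0.091 without ADLIB replicate 10 as well, and -0.11 with the first component as a covariate, the last 3 being added after seeing the data. The first of these shows that its sign rests on RES replicate 1.

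RES and ADLIB animals carry the same replicate numbers in the labels. With the number as a replicate block, limma gave 0 genes under 0.1 and 12491 genes equivalent within 2 fold. The deviations of same-numbered animals had a mean correlation of -0.087 (0.024 for other numbers), and 0 of the 10 RES libraries correlated best with their own number.

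In these libraries 1 read is worth up to 0.295 CPM, which limits values of a few reads. How much of the spread between animals is counting error was not tested.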

Other observations

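Of the 13605 genes listed at the end of Period 2, 96 were not among the 13685 listed at the end of Period 1. Of these 96 genes, 90 were equivalent within 2 fold between RES and ADLIB animals with 20 libraries (93.8%, against 92.4% of all genes), and 7 had an unadjusted limma p-value under 0.05 (7.29%, against 2.06%). With 19 libraries the numbers were 93 (96.9%, against 97.2%) and 5 (5.21%, against 2.2%).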
